A study of Mus musculus with 5 samples.

Results

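Fatty acid oxidation was followed through 9 genes, Cpt1a, Cpt1b, Cpt2, Acadvl, Acadl, Acadm, Hadha, Hadhb and Ehhadh, which were taken by symbol from the 32285 genes of each deposited matrix. All 9 were present in both matrices. Brown adipocytes burn fatty acids to make heat. Long-chain fatty acids enter the mitochondrion as carnitine esters, which is the step that malonyl-CoA restrains, and are then shortened in repeated rounds by chain-length-specific acyl-CoA dehydrogenases and by the hydratase, hydroxyacyl-CoA dehydrogenase and thiolase activities that follow them. Very long chains and dicarboxylic acids are shortened in peroxisomes by a parallel set of enzymes. The carnitine step is held by 2 main isoforms encoded by separate genes, Cpt1a, the form known from liver and many other tissues, and Cpt1b, the form known from muscle and brown fat.

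Nuclei of interscapular brown adipose tissue (iBAT) of male C57BL/6J-background mice were sequenced in 5 libraries. One matrix held 2 libraries of mice 3 months old. WT were littermate controls that carried either Ucp1-Cre alone or STX4 fl/fl alone, and Ucp1-STX4KO carried Ucp1-Cre and STX4 fl/fl, so that the Ucp1 promoter limits the deletion to cells that have used it. The other matrix held 3 libraries of C57BL/6J mice of 2, 12 and 24 months. The methods name 4 male mice without dividing them among libraries. Barcodes carried a number for their library (1 and 2, called here genotype libraries 1 and 2; 1 to 3, called aging libraries 1 to 3), but no label ties a number to a genotype or an age. Differences between libraries are therefore given by library number, genotype or age cannot be told apart from library, and with 1 library per condition no test between conditions was possible.

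Genotype libraries 1 and 2 held 11201 and 9106 barcodes with medians of 5998 and 3284.5 unique molecular identifiers (UMIs, each standing for 1 captured transcript). The aging libraries held 10000 barcodes each, of which 7842 in library 1 and all in libraries 2 and 3 passed the limits on UMIs and genes, with medians of 891 to 1719.5 UMIs. Between 23 and 72 barcode sequences of a library recurred in another library of its matrix. Levels are UMIs summed over the nuclei of a class per 1000000 UMIs of those nuclei (CPM), and every interval is a 95% interval that covers counting error only. A nucleus was assigned to a class by its UMIs of fixed marker genes, with clusters of whole libraries as a second classification. The labelled brown adipocytes were the bulk of the genotype libraries (10092 and 5141 nuclei), while in the aging libraries endothelial nuclei were the most numerous class (2797 to 5929, against 750 to 2162 nuclei gated as adipocytes). Only 92.0%, 47.3% and 23.7% of the gated adipocyte nuclei of aging libraries 1, 2 and 3 also lay in adipocyte-like clusters, so adipocyte levels are given both ways there. In genotype libraries 1 and 2 the same percentages were 99.9% and 76.7%. Other classes of genotype library 1 agreed less, with 77.8% of pericyte or smooth muscle, 58.7% of endothelial, 11.7% of stromal and 0 of 55 Schwann nuclei. In genotype library 2, 44.2% of Schwann nuclei agreed. Gate values of these classes carry that limit.

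Adipocyte RNA was present in nuclei of other classes, which touches every value that follows. In genotype library 1, Ucp1, the uncoupling protein of brown adipocytes, stood at 1022 CPM in adipocyte nuclei and at 526 to 855 CPM in the endothelial, pericyte or smooth muscle, stromal and Schwann classes. In genotype library 2 the corresponding levels were 852 CPM and 209 to 817 CPM. Aging library 1 had the least: 1106 CPM in adipocyte-like clusters, and 0 to 20.4 CPM in the other classes from clusters.

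Hadha and Hadhb encode the alpha and beta subunits of the mitochondrial trifunctional protein, and they lie head to head on chromosome 5. Hadha (chr5:30118304-30155162, minus strand) and Hadhb (chr5:30155248-30184593, plus strand; GRCm38, GENCODE M21) leave 85 bases between their annotated ends, at chr5:30155163-30155247. This interval is shown because the pair had the closest pattern across classes of any 2 of the 9 genes. It overlaps no annotated exon, and is written on the plus strand from the RefSeq promoter of Hadhb (GRCm38.p6). Capitals mark its 2 GC boxes (GGGCGG on either strand). The motif was in 35.7% of all 32851 RefSeq promoter windows, which are longer than this interval.
Hadha to Hadhb: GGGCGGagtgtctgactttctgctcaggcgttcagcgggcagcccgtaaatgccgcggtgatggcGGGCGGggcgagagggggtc
RefSeq promoter windows (250 bases before to 50 after the start) existed for 8 of the 9 genes, all but Cpt1b. None held 2 AGGTCA half-sites on 1 strand and 1 base apart, the arrangement bound by PPAR:RXR dimers and found in 0.0396% of all windows, and none held TCAAGGTCA, the longer site known for estrogen-related receptors, found in 0.423%. A single AGGTCA on either strand was found in 3 windows, against 16.3% of all windows. These stretches are shown, 5′ to 3′ on the strand of the gene with the half-site in capitals, for Cpt1a (chr19:3323177-3323242), Acadm (chr3:153944857-153944893) and Acadvl (chr11:70015480-70015545), because they are the only matches among the 8 windows.
Cpt1a: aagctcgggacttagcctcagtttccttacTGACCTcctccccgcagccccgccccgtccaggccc
Acadm: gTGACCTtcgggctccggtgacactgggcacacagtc
Acadvl: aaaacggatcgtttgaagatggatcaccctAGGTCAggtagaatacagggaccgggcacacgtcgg
A match says only that these letters occur there. The Cpt1a stretch lies inside the gene as GENCODE M21 places it (chr19:3322334-3385733, plus strand), though in no annotated exon. The RefSeq start of Cpt1a lies downstream of the GENCODE start.

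The carnitine palmitoyltransferases came first, because Cpt1a and Cpt1b had opposite distributions. Cpt1b was highest in adipocyte nuclei of all 5 libraries when classes came from clusters. By the marker gate its level in adipocyte nuclei was 596 CPM (590 to 601) in genotype library 1 and 470 CPM (461 to 478) in genotype library 2. In the aging libraries it was 297, 285 and 116 CPM by the gate and 313, 452 and 348 CPM in adipocyte-like clusters. Aging library 3 was the lowest of the 5 by the gate but not in the clusters.

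Outside adipocytes, the Cpt1b level is given beside that of Ucp1, each as a percentage of its own adipocyte level. In genotype library 1 its level in endothelial nuclei was 76.3% of that in adipocyte nuclei, beside 80.3% for Ucp1, and in stromal nuclei it was 43.0%, beside 51.5% for Ucp1. From clusters these pairs were 33.0% and 42.3% in endothelial-like, and 72.6% and 79.4% in stromal-like clusters. In genotype library 2 the intervals of Cpt1b and Ucp1 overlapped in every class but muscle, where Cpt1b was at 50.8% (46.1 to 55.9) and Ucp1 at 25.6% (23.1 to 28.3). In aging library 1, Cpt1b was at 3.56 to 12.0 CPM in the clusters of other classes. Its percentage there was 3.83% (2.56 to 5.52) in endothelial-like and 1.50% (0.681 to 2.86) in Schwann-like clusters, above 1.84% (1.37 to 2.43) and 0.283% (0.104 to 0.616) for Ucp1, while in stromal-like clusters 1.87% and 0.212% had overlapping intervals. In endothelial-like clusters of aging library 3 the order was the other way, with 4.39% for Cpt1b and 10.0% for Ucp1. The part of carried-over RNA in these values was not tested.

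Cpt1a, in contrast, was lowest in adipocyte nuclei of all 5 libraries by clusters, and of 4 of 5 by the gate. In genotype library 1 it was at 3.10 CPM (2.70 to 3.54, from 214 UMIs in 10092 nuclei) in adipocyte nuclei and at 46.6 CPM (36.6 to 58.6) in stromal nuclei. In genotype library 2 it was at 16.5 CPM (15 to 18.2) in adipocyte nuclei, against 118 CPM (106 to 132) in stromal, 88.3 CPM (76.3 to 102) in macrophage, 87.1 CPM (51.6 to 138) in B or dendritic and 82.5 CPM (56.1 to 117) in T lymphocyte nuclei. The intervals of these 4 classes overlapped each other, except that stromal nuclei lay above macrophage nuclei. The exception to the order was the Schwann class of genotype library 2, with 2 UMIs of Cpt1a in 52 nuclei and a Ucp1 level of 817 CPM, close to that of adipocytes.

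Adipocyte nuclei were lowest in the aging libraries as well, with 4.22, 19.4 and 23.3 CPM by the gate, where in libraries 2 and 3 the interval overlapped that of at least 1 other class. In aging library 1 Cpt1a was at 4.43 CPM (2.03 to 8.41, from 9 UMIs) in adipocyte-like clusters and at 86.5 CPM (73.9 to 101) in Schwann-like clusters, with stromal-like clusters at 51.7 CPM and endothelial-like clusters at 36.0 CPM. Aging libraries 2 and 3 had 10.4 and 12.2 CPM in adipocyte-like clusters, and 26.6 to 62.3 CPM and 27.1 to 46.3 CPM in the others. In aging library 3 the adipocyte interval (7.11 to 19.5) overlapped that of macrophage-like clusters, which rested on 4 UMIs, and lay below those of the other classes.

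The share of Cpt1b among the UMIs of both genes put this contrast on 1 scale. In adipocyte-like clusters the share was 99.5% and 97.8% in the genotype libraries and 98.6%, 97.8% and 96.6% in the aging libraries, where the gate gave 98.6%, 93.6% and 83.3%. In clusters of aging library 1 it was 25.0% (17.5 to 33.7) in endothelial-like, 10.2% (3.40 to 22.2) in stromal-like and 5.14% (2.38 to 9.54) in Schwann-like clusters, so none of the intervals reached the adipocyte value. The gate gave 57.7%, 16.1% and 16.1% for these classes. The 2 genes differ in length (Cpt1a 63.4 kb at chr19:3322334-3385733, Cpt1b 9.46 kb at chr15:89416405-89425863), and longer genes can yield more intronic UMIs. Per kb of gene, the share in aging library 1 was 99.8% in adipocyte-like clusters, 69.1% in endothelial-like, 62.2% in pericyte-like or smooth muscle-like, 57.3% in macrophage-like, 43.2% in stromal-like and 26.7% in Schwann-like clusters. Cpt1b thus made up most of the UMIs per kb in endothelial-like clusters, and adipocytes remained the highest. The pericyte-like or smooth muscle-like value rests on 15 UMIs of Cpt1b and 61 of Cpt1a, too few to place it above or below 50%. The per-kb shares have no interval, and whether introns were counted is not given in the sources used here. The macrophage-like value rests on 1 UMI of Cpt1b and 5 of Cpt1a, too few to place that class. Cpt1b begins 496 bases downstream of Chkb on the same strand, and transcripts that read through from Chkb cannot be told apart from its own in these counts.

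**Figure D1:**
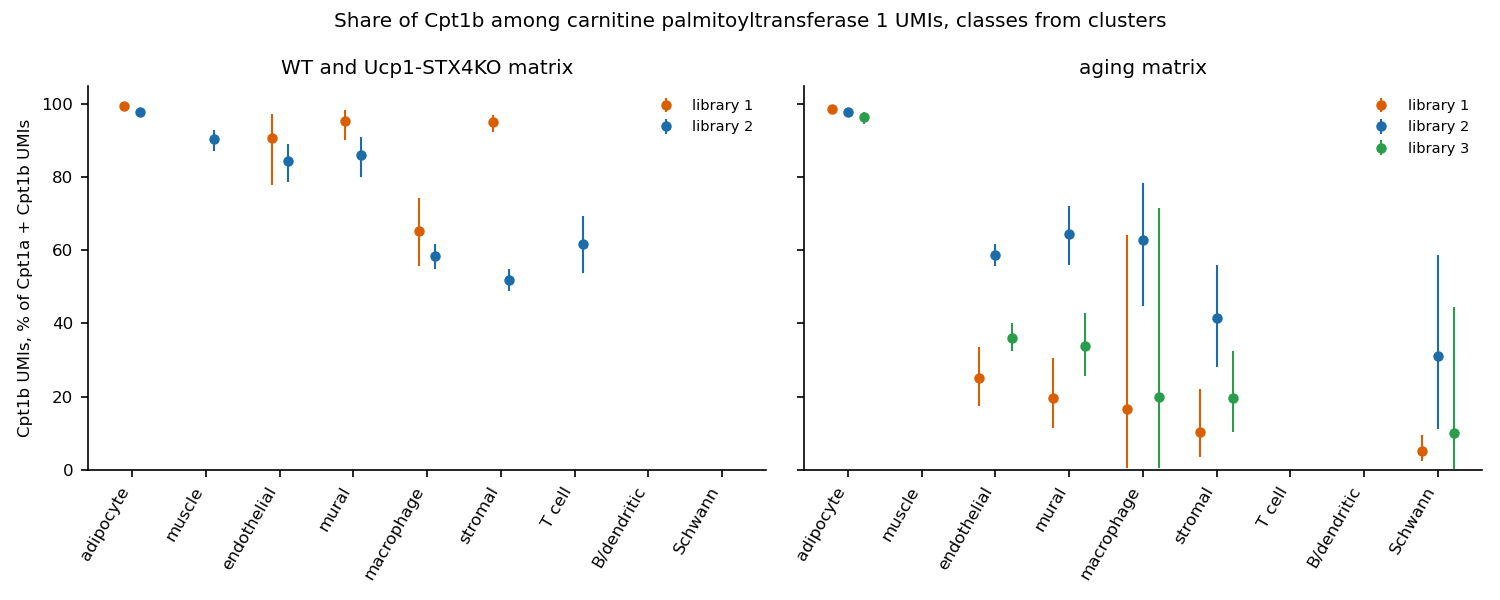
Cpt1b UMIs as a percentage of Cpt1a and Cpt1b UMIs (vertical axis) in each class from clusters with at least 50 nuclei (horizontal axis), with exact binomial 95% intervals, in the 2 genotype libraries and the 3 aging libraries. Adipocyte-like clusters lie between 96.6% and 99.5% in all 5 libraries, and aging library 1 falls to 5.14% in Schwann-like clusters.

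Skeletal muscle nuclei had a Cpt1b share of 91.6% (88.8 to 94.0) in genotype library 2, the only library with at least 50 of them (372 nuclei, with Ttn, the giant sarcomere protein, at 59213 CPM against 59.1 CPM in adipocyte nuclei). Adipocyte nuclei of the same library stood at 96.6% (96.3 to 96.9), and the intervals did not overlap. Among muscle nuclei that held no UMI of Adipoq, Plin1, Cidec or Ucp1 a selection that does not show that carried-over RNA was absent, the share was 94.1% (86.8 to 98.1).

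Cpt2 encodes the inner-membrane enzyme that hands the acyl group back to CoA. It was at 130 CPM (128 to 133) in adipocyte nuclei of genotype library 1 and at 93.1 CPM (89.4 to 96.8) in library 2. The aging libraries gave 87.8, 52.0 and 25.8 CPM by the gate and 93.0, 70.5 and 54.6 CPM in adipocyte-like clusters. Library 3 was lowest both ways, but in clusters the interval of its ratio to library 2, 0.774 (0.585 to 1.02), held 1. In clusters of aging library 1 Cpt2 stood at 29.0% (18.0 to 44.9) of the adipocyte level in stromal-like and 12.5% in endothelial-like clusters. It was at 11.8% in Schwann-like and 6.89% in pericyte-like or smooth muscle-like clusters, and macrophage-like clusters held 0 UMIs of it. Ucp1 was at 0 to 1.84% in these clusters.

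The acyl-CoA dehydrogenases Acadvl, Acadl and Acadm act on very long, long and medium chains. Acadm was at 835 CPM (828 to 842) in adipocyte nuclei of genotype library 1 and at 335 CPM (328 to 343) in library 2. The gap between these libraries was the widest of the 8 genes that were high in adipocytes. Its aging values were 536, 370 and 177 CPM by the gate and 546, 443 and 424 CPM in adipocyte-like clusters. Acadl was nearly level between the genotype libraries, at 494 CPM (489 to 500) and 469 CPM (460 to 477). In the aging libraries it was at 499, 480 and 175 CPM by the gate and 511, 594 and 338 CPM in clusters. Acadvl was at 132 CPM (129 to 135) and 81.3 CPM (77.9 to 84.8) in the genotype libraries, and in the aging libraries at 88.3, 152 and 43.3 CPM by the gate and 87.1, 168 and 84.0 CPM in clusters. Aging library 2 was highest both ways, while library 3 lay below library 1 by the gate, with a ratio of 0.491 (0.398 to 0.604), and had an overlapping interval in clusters. In the annotation Acadvl overlaps Dvl2 and Mir324, Acadl overlaps Gm15793 and Gm27934, and Hadha overlaps Garem2. Hadhb overlaps Mir1960, Cpt1b overlaps Gm44502 and Ehhadh overlaps Gm24898. The assignment of UMIs in the shared bases is uncertain.

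The trifunctional protein genes had similar ratios between the genotype libraries but not between aging libraries 1 and 2. Hadha was at 797 CPM (790 to 804) and 590 CPM (580 to 599) in adipocyte nuclei of genotype libraries 1 and 2. Hadhb was at 682 CPM (676 to 688) and 491 CPM (482 to 499). The library 2 to 1 ratios were 0.740 (0.726 to 0.753) for Hadha and 0.720 (0.706 to 0.734) for Hadhb. In the aging libraries Hadha was at 543, 380 and 179 CPM by the gate and 562, 540 and 389 CPM in adipocyte-like clusters. Hadhb was at 334, 391 and 155 CPM by the gate and 342, 489 and 343 CPM in clusters. From aging library 1 to 2 the ratio was 0.699 for Hadha and 1.17 for Hadhb by the gate, and 0.962 and 1.43 in clusters, and both genes were lower in library 3 than in library 2 either way.

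Ehhadh, the peroxisomal bifunctional enzyme (hydratase and hydroxyacyl-CoA dehydrogenase), had the widest range of the 9 genes among libraries. It was at 685 CPM (679 to 691) in adipocyte nuclei of genotype library 1 and at 345 CPM (338 to 352) in library 2. Adipocyte-like clusters of aging libraries 1 and 2 had 242 CPM (221 to 264) and 243 CPM (224 to 263), and those of library 3 had 59.6 CPM (47.5 to 73.9). The gate gave 240, 153 and 23.7 CPM. In clusters, library 3 thus lay below library 2 by a ratio of 0.245 (0.193 to 0.309), beside 0.280 for Ucp1 and 0.501 to 0.957 for the other members of the group apart from Cpt1a. By the gate the Ehhadh ratio was 0.155, beside 0.164 for Ucp1.

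**Figure D2:**
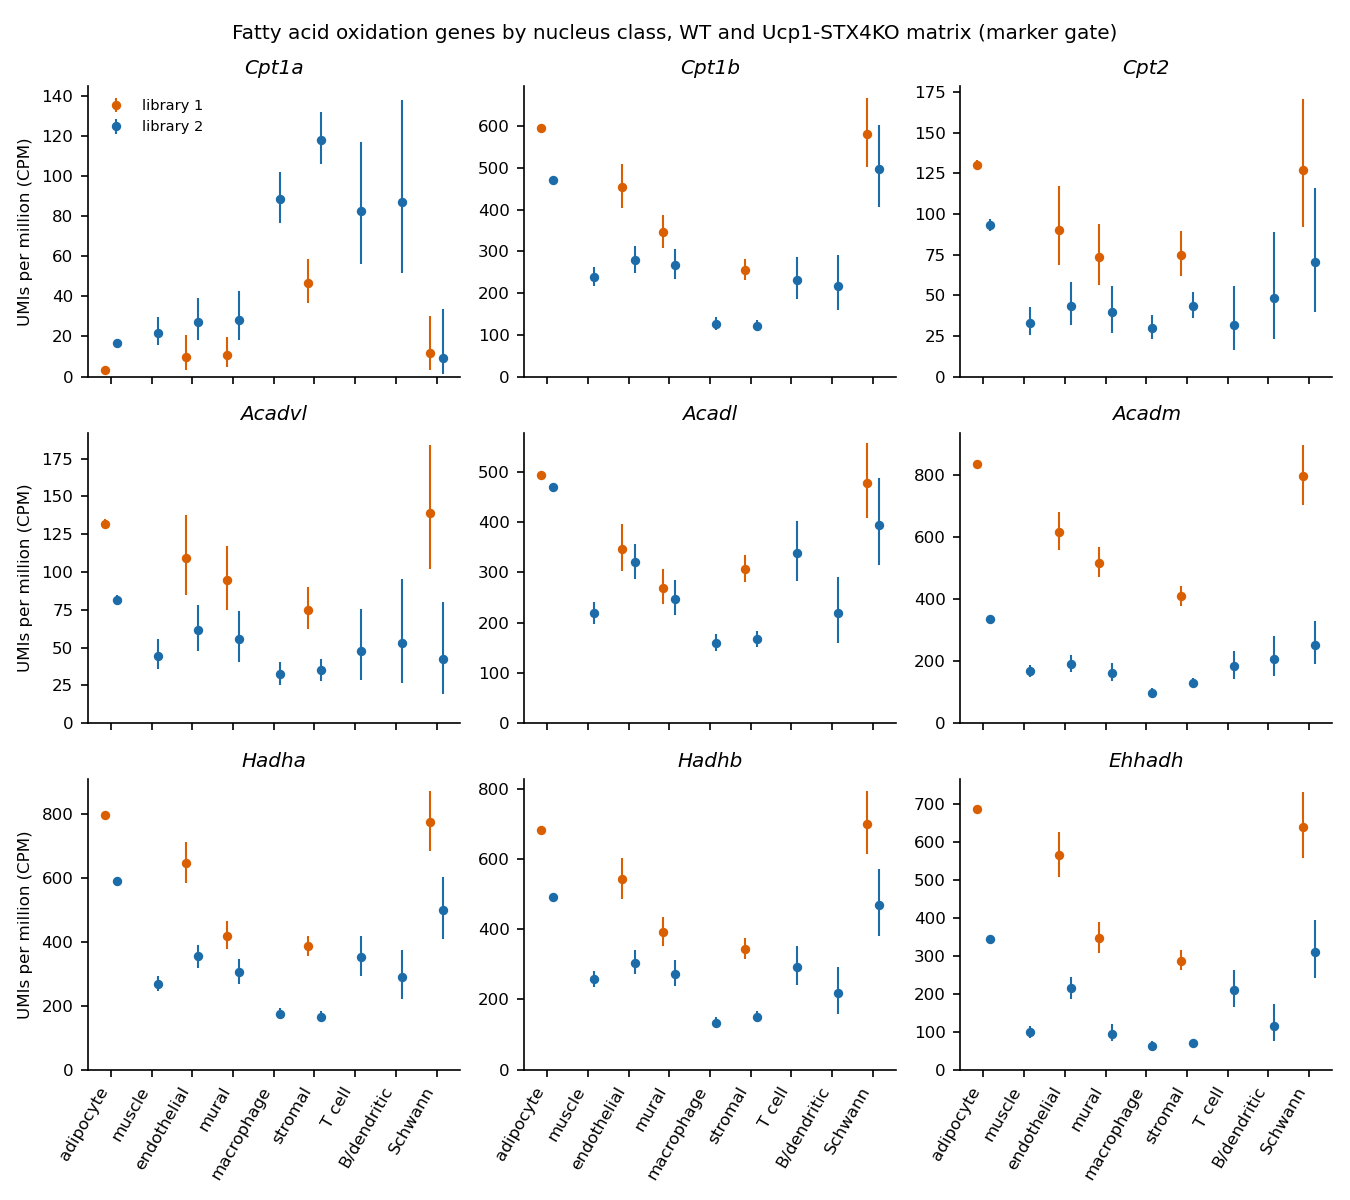
Summed level of each of the 9 genes (vertical axis, CPM, from 0) in each nucleus class by the marker gate (horizontal axis; mural stands for pericyte or smooth muscle), in genotype libraries 1 and 2, with exact Poisson 95% intervals. Cpt1a is at 3.10 and 16.5 CPM in adipocyte nuclei and reaches 118 CPM in stromal nuclei, while the other 8 genes are highest in adipocyte nuclei or lie there within the interval of the Schwann class, whose Ucp1 is also high.

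Across the 8 genes other than Cpt1a, adipocyte nuclei were highest in 40 of 40 gene-by-library combinations when classes came from clusters, and in 37 of 40 by the gate. The 3 exceptions were Acadvl and Hadhb in genotype library 1 and Cpt1b in genotype library 2, each with the Schwann class highest and with overlapping intervals. In endothelial-like clusters of aging library 1, the library with the least Ucp1 outside adipocytes, Hadhb stood at 23.3% (19.8 to 27.3) of its adipocyte level, Hadha at 15.8% (13.6 to 18.3), Acadl at 14.1% (12.0 to 16.5) and Acadm at 7.54% (6.1 to 9.24). Ucp1 was at 1.84% (1.37 to 2.43) in the same clusters, below all of these intervals. Cpt1b at 3.83% and Ehhadh at 4.97% (3.32 to 7.18) were the closest to Ucp1.

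In aging library 2 the endothelial-like clusters had higher percentages, with Acadvl at 57.0%, Acadm at 47.3%, Acadl at 44.8%, Hadhb at 41.6%, Cpt2 at 36.2% and Hadha at 30.2% of the adipocyte level, with Ucp1 at 14.4%. Cpt1b, at 11.6% (10.5 to 12.8), and Ehhadh, at 7.47% (6.38 to 8.72), did not exceed Ucp1. In aging library 3 the same clusters had 14.6% to 30.1% for the same 6 genes, 4.39% for Cpt1b and 11.3% for Ehhadh, beside 10.0% for Ucp1. In all 3 libraries the intervals of these 6 genes lay above that of Ucp1 in clusters, and the interval of Cpt1b lay above it in library 1 alone. By the gate this held for the 6 genes in libraries 2 and 3, while in library 1 Acadm, at 15.8% (13.9 to 18.0), Acadvl, at 18.4% (13.4 to 24.9), and Cpt1b, at 15.3% (12.8 to 18.3), overlapped Ucp1, at 12.8% (11.6 to 14.2).

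**Figure D3:**
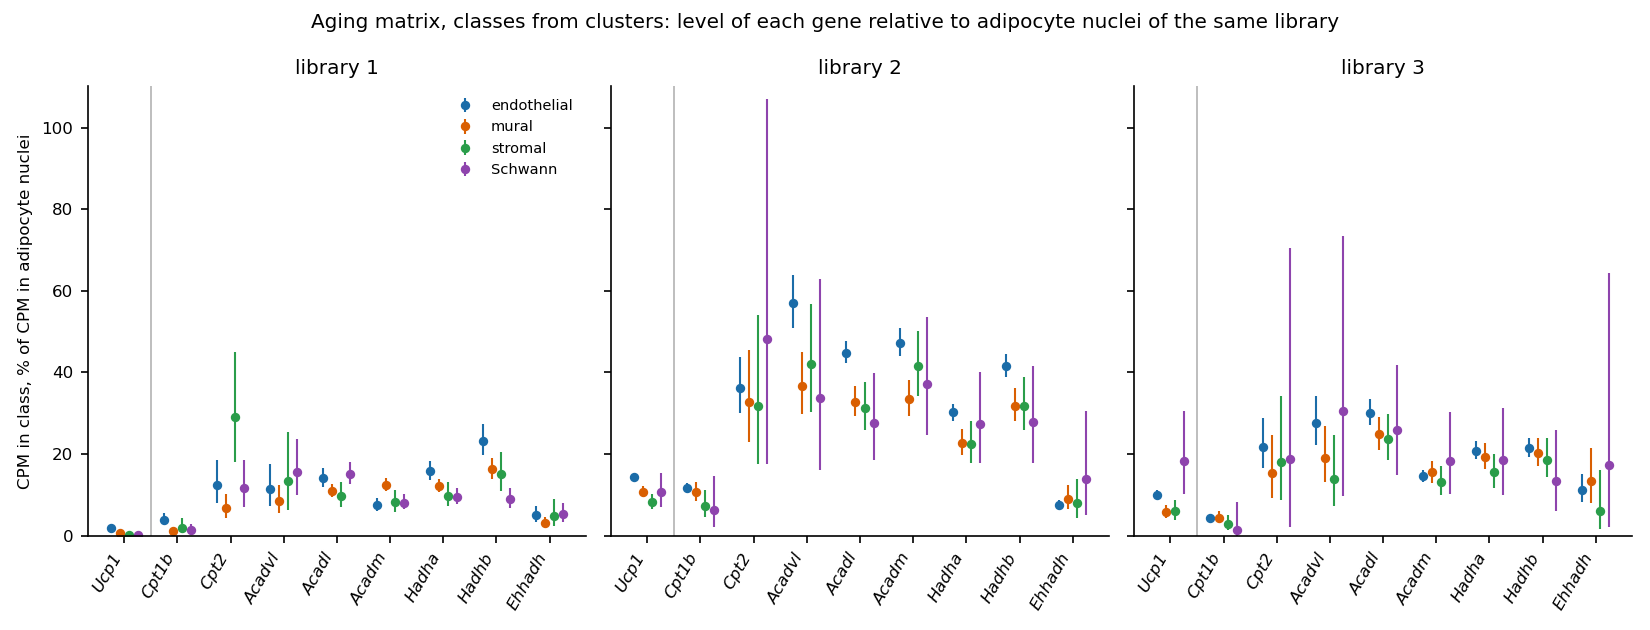
Level in endothelial, pericyte or smooth muscle (mural), stromal and Schwann classes from clusters as a percentage of the level in adipocyte-like clusters of the same aging library (vertical axis), for Ucp1 and the 8 genes that were highest in adipocytes (horizontal axis), with 95% counting intervals. Ucp1, Cpt1b and Ehhadh lie lowest in libraries 1 and 2, and the 6 other genes reach 57.0% in endothelial-like clusters of library 2.

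Adipocyte and muscle nuclei, both of cells that oxidise fatty acids, were compared within genotype library 2. The 9 genes were higher in adipocyte nuclei, with the exception of Cpt1a, and the ratios of the other 8 spanned 1.82 to 3.51. A gene was called where its CPM ratio reached 2-fold with an interval that excluded 1, among the 14515 genes with at least 20 UMIs over both classes. By this rule 5 of the 9 genes were called higher in adipocyte nuclei, against 18.2% of all genes tested, and 0 of 9 lower, against 11.5%. No p-value is attached, since nuclei of 1 library are not replicates. The median ratio of the 9 genes was 2.01, and that of all genes tested was 1.31.

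Ehhadh had the widest gap, with 345 CPM in adipocyte and 98.1 CPM (84.3 to 114) in muscle nuclei, a ratio of 3.51 (3.03 to 4.10). Cpt2 followed with 93.1 against 33.2 CPM (25.4 to 42.7), a ratio of 2.80 (2.17 to 3.67). Hadha, at 590 against 269 CPM, had a ratio of 2.19 (2.01 to 2.40). Acadl and Acadm were called at ratios of 2.14 (1.94 to 2.37) and 2.01 (1.79 to 2.26).

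The remaining genes missed the 2-fold limit. Cpt1b was at 470 CPM in adipocyte and 239 CPM (217 to 262) in muscle nuclei, a ratio of 1.97 (1.79 to 2.17), Hadhb had a ratio of 1.91 (1.74 to 2.10) and Acadvl of 1.82 (1.46 to 2.30). These 3 intervals all hold 2 and exclude 1, and they overlap those of Acadl and Acadm, so the 2-fold limit does not separate these 5 genes. Cpt1a was at 16.5 CPM in adipocyte and 21.8 CPM (15.6 to 29.7) in muscle nuclei. Its ratio of 0.759 (0.548 to 1.08) covered equality.

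Adipocyte RNA was counted in the muscle nuclei, and whether it was carried over or came from doublets was not tested. Ucp1, a gene of brown rather than muscle cells, was at 218 CPM in muscle nuclei, a ratio of 3.91 (3.54 to 4.32), and Adipoq, the adipocyte hormone adiponectin, had a ratio of 3.23 (2.54 to 4.17). If each gene had been carried over in the proportion of Ucp1, muscle nuclei would have held 120 CPM of Cpt1b, 151 CPM of Hadha, 126 CPM of Hadhb, 120 CPM of Acadl and 20.8 CPM of Acadvl. The measured levels were 1.99, 1.78, 2.04, 1.82 and 2.15 times as high. The same comparison gave 1.94 for Acadm, 1.40 for Cpt2 and 5.15 for Cpt1a. For Ehhadh the measured 98.1 CPM was 1.11 times the 88.2 CPM that Ucp1 would give, which lies inside its interval. The proportion was that of all gated adipocyte nuclei together, and it differed among the clusters of these nuclei described below. Ehhadh and Ucp1 were at 234 and 143 CPM in 1 of them, and at 193 and 1489 CPM in another. In the 75 muscle nuclei with no UMI of the 4 adipocyte genes, the Ehhadh ratio was 8.33 and that of Cpt1b was 1.70. This Ehhadh value is the highest of 12 alternative settings, over which its ratio ran from 1.19 to 8.33. Among the 1150 adipocyte and 76 muscle nuclei inside the range of UMIs and genes that the methods state, 0 of 9 genes were called, the 9 ratios lay between 1.08 and 1.91, and the Ucp1 ratio was 1.28 (0.968 to 1.72). Where classes came from clusters 7 genes were called higher and Cpt1a was called lower, with a ratio of 0.420. Shares over all genes are given for the marker gate only, so these changed counts cannot be set against a background.

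**Figure D4:**
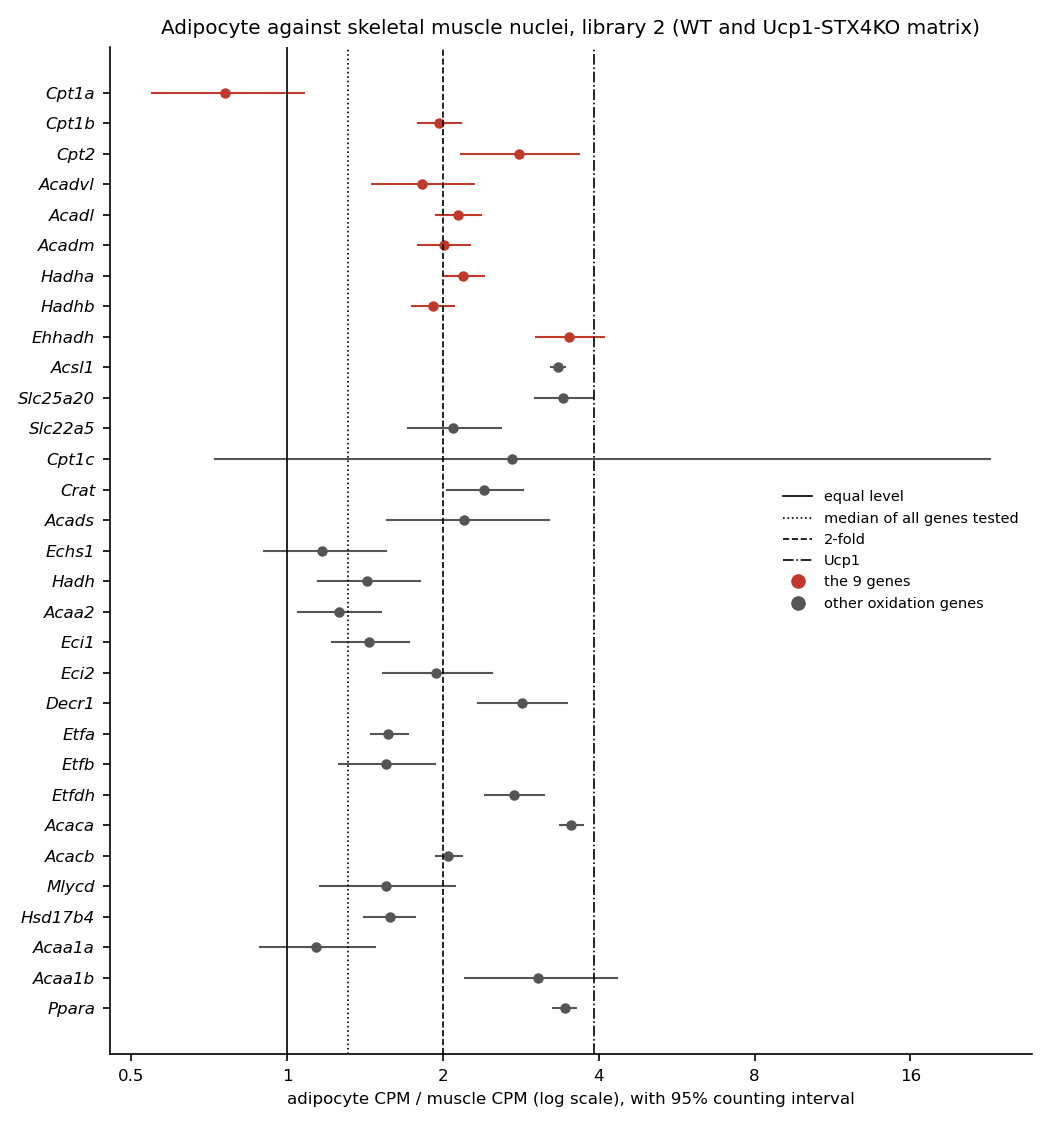
Ratio of CPM in adipocyte to CPM in muscle nuclei of genotype library 2 (horizontal log axis) with exact 95% counting intervals, for the 9 genes (red) and 22 other fatty acid oxidation genes (grey), with lines at equal level, at the median of all genes tested, at 2-fold and at the Ucp1 ratio. All genes other than Cpt1a have ratios above 1, and the interval of Ehhadh, 3.03 to 4.10, holds the Ucp1 ratio of 3.91.

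The surrounding pathway was covered by 24 further genes. Of these, 13 were called higher in adipocyte than in muscle nuclei, against 18.2% of all genes tested, and 0 lower, against 11.5%. Their median ratio was 2.15. Among transport and activation genes 4 of 5 were called: the carnitine-acylcarnitine carrier Slc25a20 (3.42), the acyl-CoA synthetase Acsl1 (3.34), carnitine acetyltransferase Crat (2.40) and the carnitine importer Slc22a5 (2.09). The fifth, Cpt1c, had 2 UMIs in muscle nuclei and a ratio of 2.72 (0.727 to 22.8).

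Short chain and auxiliary enzymes were more even, with 2 of 7 called, Decr1 (2.84), which prepares unsaturated chains, and Acads (2.20), the short-chain dehydrogenase. Those not called ran from Echs1 at 1.17 (0.904 to 1.55) to Eci2 at 1.94. Of the 3 electron transfer genes, Etfdh (2.75) was called, while the flavoprotein subunits Etfa and Etfb had 1.57 and 1.55. Both acetyl-CoA carboxylases, which make the malonyl-CoA that restrains CPT1, were called (Acaca 3.54, Acacb 2.05), and the malonyl-CoA decarboxylase gene Mlycd, at 1.55, was not. In peroxisomes Acaa1b (3.05) was called, whereas Hsd17b4, the other bifunctional enzyme, had 1.58 and Acaa1a 1.14. The thiolase genes Acaa1a and Acaa1b are near-identical copies, so the division of UMIs between them is uncertain. Ppara, the nuclear receptor that drives many of these genes, had a ratio of 3.44 (3.27 to 3.62).

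Between the genotype libraries, adipocyte nuclei differed most in Cpt1a and Acadm. In library 2 against library 1, 1 of the 9 genes was called higher, against 15.4% of 16900 genes tested, and 1 lower, against 22.1%. Cpt1a was higher by a ratio of 5.34 (4.52 to 6.32). Acadm was lower, with a ratio of 0.402 (0.393 to 0.411), and Ehhadh at 0.503 (0.492 to 0.515) was just short of the limit. The other 6 ratios lay between 0.617 (Acadvl) and 0.948 (Acadl), where the median gene was at 0.812 and Ucp1 at 0.834.

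The Cpt1a level differed among clusters of the gated adipocyte nuclei. The 3 clusters of gated adipocyte nuclei in library 2 that did not lie in adipocyte-like clusters of the library had 68.8, 83.9 and 150 CPM of Cpt1a, against 6.91 to 15.1 CPM in the other 5. Their leading genes were mitochondrially encoded transcripts and Cdh13 in the first, Cd84 and Gpnmb in the second, and Col18a1 and Slco2a1 in the third. With only the nuclei that gate and clusters both called adipocytes the ratio was 3.38. With classes from clusters it was 3.23 (2.71 to 3.85), still called higher. What set the Cpt1a difference between the libraries was not tested.

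Of the 24 other genes, 5 were lower in library 2, against 22.1% of all genes tested, and 3 higher, against 15.4%. These counts are near the shares over all genes. Acaa2 (0.283) and Hadh (0.318), the last steps of the mitochondrial cycle, had the lowest ratios, followed by Echs1 (0.449), Acacb (0.459) and Eci1 (0.469). Cpt1c (3.79), a form of the carnitine enzyme known from neurons, was among the higher ones, on 77 UMIs in library 2 and 54 in library 1. With classes from clusters it was not called, with a ratio of 1.81 (1.19 to 2.73).

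Within the adipocyte nuclei, the 9 genes were not counted when the nuclei were clustered, and they varied widely among the clusters, above all in library 2. Cpt1b ranged from 96.7 CPM (90.0 to 104) in the cluster led by Nnat, Aldh1a1 and Cyp2e1 (1324 nuclei) to 850 CPM (827 to 873) in the cluster led by Gmpr and Ryr2 (1029 nuclei). Ucp1 was at 143 and 1489 CPM in this pair of clusters. Hadhb, at 232 and 730 CPM, Hadha, at 324 and 736 CPM, and Acadvl, at 43.8 and 119 CPM, had the same order, and so did Acadl, at 390 and 480 CPM. Cpt2, at 99.9 and 88.4 CPM, and Acadm, at 329 and 319 CPM, did not share it. Ehhadh ran the other way, at 234 CPM (224 to 245) and 193 CPM (182 to 204).

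The highest Ehhadh level was in the cluster of library 2 led by Glt1d1 and Acsm3 (359 nuclei), with 1194 CPM (1138 to 1251). The same cluster had the highest Acadm, 469 CPM (434 to 505), of the library, while its Ucp1, 611 CPM, lay below the 878 to 1772 CPM of the 3 clusters with the most Ucp1 among adipocyte-like nuclei. Cpt1b there was 693 CPM.

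In library 1, whose clusters were more alike, Acadm stayed between 819 and 871 CPM in 5 of 6 clusters, and Cpt1b in the same 5 between 549 and 635 CPM. Ehhadh again spread further, from 371 CPM (362 to 379) in the cluster whose leading genes include Car3 and Camkk2 to 983 CPM (969 to 997) in the one whose leading genes include Acly and Insig1. The small cluster led by Cyp2e1 (115 nuclei) was lowest for all 8 genes high in adipocytes, with Cpt1b at 203 CPM (173 to 238), Acadvl at 59.9 CPM and Ehhadh at 294 CPM, beside a Ucp1 of 262 CPM. It held 1 UMI of Cpt1a. In both libraries, then, the cluster with the lowest Ucp1 among adipocyte-like nuclei had the lowest Cpt1b, Hadha, Hadhb and Acadvl.

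**Figure D5:**
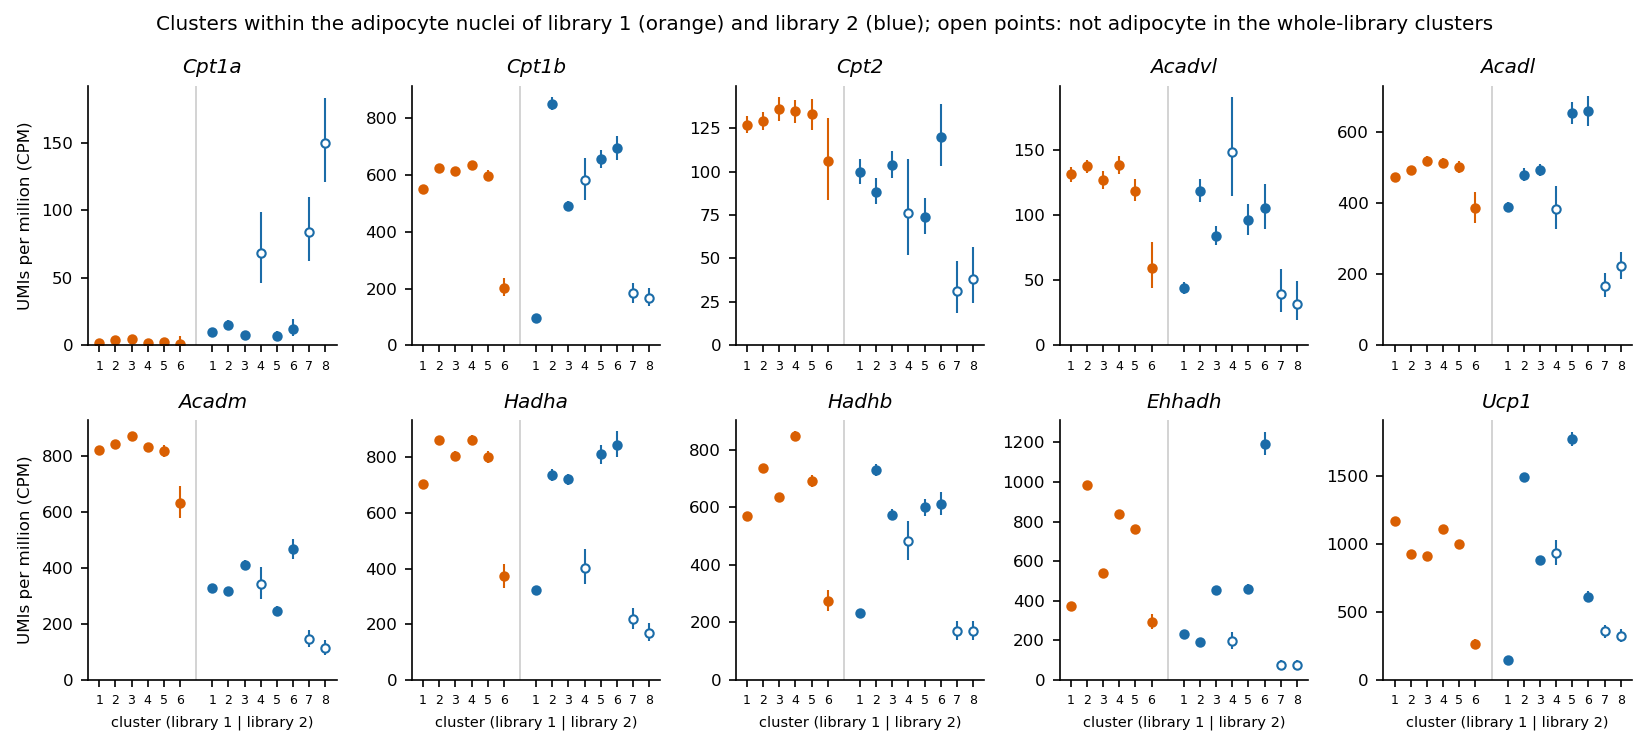
Summed level (vertical axis, CPM) of the 9 genes and Ucp1 in each cluster of adipocyte nuclei (horizontal axis) of genotype library 1 (orange) and library 2 (blue), with exact Poisson 95% intervals. Open points are clusters whose nuclei lay outside the adipocyte-like clusters of the library, where Cpt1a is highest, and Cpt1b in filled blue points runs from 96.7 to 850 CPM.

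The genes of most similar pattern were sought over 14 class sums of the genotype libraries, by the Pearson correlation of log2(CPM + 1) among 13087 genes. These sums share the adipocyte RNA found outside adipocyte nuclei, so the values are a description. Hadha and Hadhb correlated at 0.990 and each was among the nearest 3 genes of the other. Ppara was among the nearest 3 of Cpt1b (0.990), Hadha (0.989) and Hadhb (0.989), and Ppargc1b, a coactivator of mitochondrial genes, was among those of the same 3 genes (0.987, 0.986 and 0.994), with Dlat (0.987) completing those of Cpt1b. Cidea (0.978), a lipid droplet protein of brown fat, Slc36a2 (0.977) and Ntrk3 (0.973) were nearest to Ehhadh. For Acadm they included Slc25a42 (0.987) and Miga2 (0.986), for Acadl Ralgapa2 (0.975), Aifm2 (0.971) and Arl4a (0.971), for Acadvl Fam13a (0.985), Carf (0.966) and Acadm itself (0.956), and for Cpt2 Tmem79 (0.961), Csad (0.959) and Sgta (0.958). Cpt1a stood apart, with Apbb1ip (0.933), a gene of haematopoietic cells, Smarca2 (0.932) and Slc9a9 (0.918).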

How the data were processed

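The authors aligned snRNA-seq reads (10x 3′ v3.1) to mm10 with Cell Ranger 6.1.2, stating a forced number of 10000 cells, and deposited UMI counts per gene and nucleus, not normalized, in 2 matrices of combined libraries. The annotation, the counting of introns and any equalising of depth are not given in the sources used here. Seurat 4.1.0 served their clustering, which was not used here.

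Nuclei with at least 200 UMIs and 100 genes, the lower stated limits, were kept. The upper limits of 2000 UMIs and 3000 genes were an alternative, since 0 of 11201 barcodes of genotype library 1 met them. A nucleus joined 1 of 9 marker classes with at least 3 UMIs from 2 markers and a marker share 8 times that of other nuclei. No such multiple parted the majority class, so nuclei that passed no list took that with the highest multiple if it was adipocyte (or endothelial in the aging matrix). This replaced the share rule for those classes. Nuclei passing 2 or more lists (47 to 365 per library, possible doublets) entered no class, and no doublet caller was run. In genotype library 2, 109 nuclei lay between 0.5 and 2 times the muscle limit. Classes under 50 nuclei gave no value. Clusters (Leiden, leidenalg 0.10.2, resolution 0.5, each library alone, 2000 variable genes without the genes reported here, 30 components, 20 neighbours) were named by at least 3 markers raised 2-fold. A cluster stayed unnamed if at least 3 of its 10 leading genes were mitochondrial or haemoglobin genes. It also did if another class had more markers among them, or if it was low in UMIs without a marker of its class there. In genotype library 1 this left out 348 nuclei led by Lama2 and Egfr, with 7 of 7 markers of 1 list raised and Ttn among the leading genes.

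Sums of UMI counts were compared as CPM with exact Poisson, conditional binomial and Clopper-Pearson 95% intervals (scipy 1.17.1), which cover counting error only. The ratios were tested on simulated data. Named genes were the 9 members, the genes of the other list that were called or had 5 or fewer UMIs, with uncalled ones added as values, Ucp1, Adipoq and the 3 most similar genes of each member. GC boxes, single half-sites and the genes leading clusters were added after their values were seen. Members and lists were chosen with earlier results of these data known. Protein sequences were not analysed here. Some genes that the rule names are not reported here, though the counts of genes include them.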

Additional observations from a re-analysis of the deposited data

How the results depend on the processing

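No paired analysis was possible because each condition is 1 library and the labels give no replicate numbers, and no replicate could be left out. Adipocyte to muscle ratios kept their direction for the 8 genes above 1 under all 12 alternatives, and their values stayed inside the original interval in 63 of 108 comparisons over the 9 genes. That of Cpt1a, whose interval held 1, ran from 0.334 to 1.64. The count of genes higher in adipocytes was 5, and became 8 with both libraries pooled, 8 with nuclei on which gate and clusters agreed (chosen after seeing the data), 2 with the median of gene ratios as the scale and 0 in the stated range of UMIs and genes. The count of genes lower was 0, and became 1 with both libraries pooled, with classes from clusters and with nuclei on which both agreed. Over all genes, 2642 were higher and 1676 lower by the original gate, and the numbers under the alternatives are not given here. Whether the changed counts are particular to the 9 genes cannot be told from them.

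Between the genotype libraries 2 genes instead of 1 were lower with at least 6 UMIs from 3 markers and with each nucleus thinned to 1000 UMIs, Ehhadh being the second. With the median of gene ratios as the scale Acadl turned to 1.15. The Cpt1b share was 96.6% in adipocyte nuclei, 97.8% from clusters, 98.8% with both libraries pooled and 97.9% where gate and clusters agreed, and in muscle nuclei it was 91.6%, and 94.1% in those without adipocyte UMIs. For the aging libraries the classification decided several directions: from clusters, and where gate and clusters agreed, the library 2 to 1 ratio of Ehhadh was 1.01 and 1.02 (0.638 by the gate), and the library 3 to 1 ratios were 1.11 and 1.16 for Cpt1b (0.392) and 1.0 and 1.02 for Hadhb (0.463). The cause was not tested. Small classes limit precision: Cpt1a rests on 9 UMIs in adipocyte-like clusters of aging library 1.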
